A study of Mus musculus with 8 samples.

Results

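The cholesterol and fatty acid synthesis genes described here are 35 mouse genes taken by symbol, all of which are among the 28918 genes of the deposited expression table. They comprise 24 synthesis enzymes (18 of the sterol pathway and 6 of the fatty acid pathway), 6 genes of sterol sensing and transport, and 5 genes of the liver X receptors and their targets. Subcutaneous tumors were grown in C57BL/6 mice from B16mhgp100, a subline of the B16 mouse melanoma. The tumor cells over-expressed Colq, the collagen-like tail that anchors acetylcholinesterase, in one group and carried the vector alone in the other. Every mouse, of both groups, received antibody against the checkpoint receptor PD-1 at 200 µg per dose, 2 doses per week and 4 in all, from day 10 after inoculation, and tumors were collected 1 day after the last dose. The groups used here thus hold no untreated tumors. Polyadenylated RNA of whole tumors was sequenced in 8 libraries: 3 Colq tumors gave 1 library each, and 3 vector tumors gave 5, since vector tumors 1 and 2 were each sequenced as 2 portions. Averaging the 2 portions left 3 tumors in each group.

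Cells make cholesterol from acetyl-CoA through the mevalonate pathway, then squalene, lanosterol and a series of sterol intermediates. When membrane sterol falls, the escort protein Scap carries the precursors of the transcription factors encoded by Srebf1 and Srebf2 to the Golgi, where they are cleaved and released to switch on synthesis genes, and the Insig proteins hold the complex back when sterol is plentiful. Liver X receptors, encoded by Nr1h2 and Nr1h3, answer oxidized sterols and switch on the exporters Abca1 and Abcg1. Fatty acid synthesis shares the acetyl-CoA supply and is driven mainly by the Srebf1 products.

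Promoter sequence is shown for 3 genes that fell and for Nr1h3, the only member that was higher on deposited values. The genes shown were picked with these results known. The windows lie before the RefSeq transcription start (GRCm38.p6), end where GENCODE M21 places an exon, and read 5′ to 3′ on the gene's strand. Capitals mark the core of the sterol regulatory element, TCACNCCA, and the CCAAT box bound by the cofactor NF-Y, each on either strand (a CCAAT on the other strand reads ATTGG). The Nr1h3 window, which holds none of them, is 1 of 2 overlapping RefSeq entries and lies inside the gene as GENCODE M21 draws it (91184061 to 91202834 on the minus strand), so it does not lie at the start of that gene model. In the Fasn window a CCAAT and its reverse complement overlap within one stretch of capitals. Hmgcs1 lies at chr13:119690101-119690350 (plus strand), Srebf2 at chr15:82147019-82147180 (plus), Fasn at chr11:120824548-120824797 (minus) and Nr1h3 at chr2:91195152-91195366 (minus).
Hmgcs1: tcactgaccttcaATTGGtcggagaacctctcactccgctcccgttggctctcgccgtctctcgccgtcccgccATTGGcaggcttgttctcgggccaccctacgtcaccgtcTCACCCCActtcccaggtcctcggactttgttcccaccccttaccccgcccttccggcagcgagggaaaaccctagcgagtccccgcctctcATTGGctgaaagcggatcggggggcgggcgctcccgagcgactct
Srebf2: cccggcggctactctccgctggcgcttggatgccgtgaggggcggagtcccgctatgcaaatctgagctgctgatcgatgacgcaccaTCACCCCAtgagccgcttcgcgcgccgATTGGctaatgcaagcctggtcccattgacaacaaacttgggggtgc
Fasn: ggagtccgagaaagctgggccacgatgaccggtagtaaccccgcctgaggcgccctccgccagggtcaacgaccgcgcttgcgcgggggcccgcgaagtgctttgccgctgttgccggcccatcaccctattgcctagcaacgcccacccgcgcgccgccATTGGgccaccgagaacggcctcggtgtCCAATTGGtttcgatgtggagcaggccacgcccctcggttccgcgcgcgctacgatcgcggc
Nr1h3: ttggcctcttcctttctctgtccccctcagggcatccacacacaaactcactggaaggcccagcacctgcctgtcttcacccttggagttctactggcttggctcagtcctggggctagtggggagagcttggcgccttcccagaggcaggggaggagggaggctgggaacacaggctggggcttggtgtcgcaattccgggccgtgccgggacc

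RefSeq promoters were matched for 28 of the 35 genes, with 250 bases before the start searched. The core TCACNCCA was found in 3 of the 28 (Hmgcs1, Msmo1 and Srebf2; 10.7%), against 4.20% of all 27025 genes with a window of that length. A CCAAT box was found in 20 of the 28 (71.4%), against 37.5% of all genes. Abca1, Nr1h2, Nr1h3, Acaca, Acat2, Acly, Elovl6 and Scap were the 8 genes without one. The palindromic E-box CACGTG was found in 6 of the 28 (21.4%), against 6.86% of all genes. The shares of all genes were not limited to expressed genes. These matches describe letters in short windows and are not evidence of binding, and their relation to the fold changes was not tested.

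As a check of the labels, Colq stood between 3.86 and 5.03 TPM in the Colq libraries and between 0 and 0.24 TPM in the vector libraries. Library depth cannot be read from TPM, and the error of each value is the spread over tumors. Of the 13726 genes with a mean of at least 1 TPM, 59.6% were lower and 11.3% higher in Colq tumors (limma on log2(TPM + 1), adjusted p under 0.05), and their median log2 fold change, Colq minus vector, was -0.50. After median-of-ratios size factors that median was -0.03, with 27.4% lower and 26.5% higher. Fold changes also followed transcript length, from a median of 0.49 for genes under 500 bases to -1.02 for those of 8000 bases or more. Taking out the dependence on length and GC content by loess (the length adjustment) gave a median of -0.08, with 25.9% lower and 18.0% higher. Member results are therefore given on these 3 scales, and all 35 members passed the filter. Colq libraries were closer to one another (SD of log2 differences over tested genes 0.36 to 0.39) than the portions of a single vector tumor were (0.51 for both tumors).

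Of the 35 genes, 32 were lower on deposited values, Nr1h3 was higher, and Insig2 and Abcg1 did not pass. After size factors 23 were lower and 2 higher, and after the length adjustment 20 were lower and 2 higher. All 24 enzymes fell on deposited values, where 59.6% of tested genes did, with a median log2 fold change of -0.98 against -0.50 for all tested genes. After size factors 19 fell and 0 rose, against a background of 27.4% lower, with a median of -0.45. After the length adjustment 17 fell and 0 rose, against 25.9%, with a median of -0.56. In 23 of the 24, Tm7sf2 being the exception, every Colq library lay below every vector library, as for 57.4% of tested genes; for 9.92% every Colq library lay above, and 0 members did so. Summed over the 35 members, transcripts took 0.153 to 0.163% of TPM in the Colq libraries and 0.273 to 0.348% in the vector libraries. In bulk tissue fewer cells of a type and less RNA per cell cannot be told apart.

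**Figure D1:**
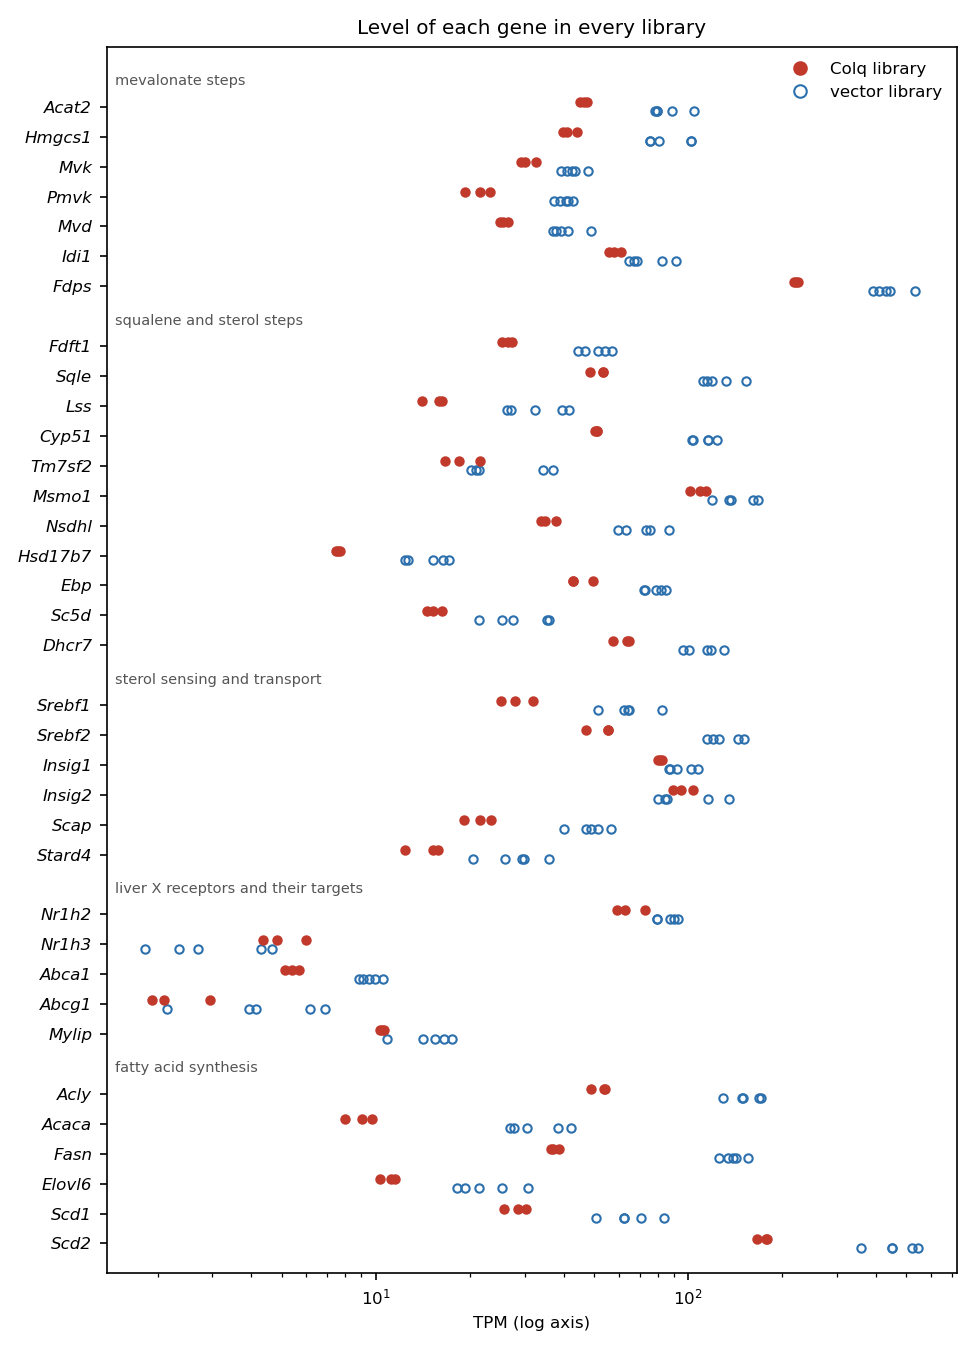
TPM on a log axis for the 35 genes, grouped by role, with 1 point per library (3 Colq, 5 vector; the vector points include 2 portions each of vector tumors 1 and 2). The Colq points lie below the vector points for all but Tm7sf2, Insig2, Nr1h3 and Abcg1, where the groups overlap.

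The mevalonate steps carry acetyl-CoA to farnesyl diphosphate. Hmgcs1, which makes HMG-CoA, stood at 43.98, 40.99 and 39.92 TPM in Colq tumors 1, 2 and 3. In the vector libraries it stood at 75.50 and 75.60 TPM (portions of tumor 1), 80.77 and 102.53 TPM (tumor 2) and 101.97 TPM (tumor 3). The groups did not overlap, and the log2 fold change was -1.08 (SE 0.11, adjusted p = 0.00011), -0.54 after size factors and -0.69 after the length adjustment. Fdps, the farnesyl diphosphate synthase and the most abundant sterol enzyme, held 217.99, 222.42 and 225.23 TPM against 392.88 and 430.49, 408.36 and 442.32, and 534.92 TPM. Its vector level was 2.06 times its Colq level, a log2 fold change of -1.03 (SE 0.10, adjusted p = 8.3e-05). Acat2, which joins acetyl-CoA units at the entry of the pathway, was at 46.3 ± 1.25 against 89.2 ± 13.4 TPM (SD, n = 3 tumors each), and the kinase gene Pmvk at 21.4 ± 2.01 against 40.0 ± 1.11 TPM. These 4 genes fell on all 3 scales. The other members of the segment moved less. Mvk, the mevalonate kinase, had a log2 fold change of -0.47 on deposited values, near the median of all genes, and 0.06 after size factors (adjusted p = 0.46). Mvd, the decarboxylase, stood at -0.62 on deposited values and -0.10 after size factors (adjusted p = 0.28), and fell after the length adjustment (-0.31, adjusted p = 0.010). Idi1, the isopentenyl isomerase, stood at -0.39, which did not pass when Colq replicate 3 was left out (adjusted p = 0.060), and at 0.14 after size factors (adjusted p = 0.29).

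Between squalene and cholesterol 11 enzymes fell on deposited values, 9 after size factors and 7 after the length adjustment. Of all tested genes 59.6%, 27.4% and 25.9% fell on these scales. Sqle, the squalene epoxidase and a rate-limiting step, gave 53.56, 53.34 and 48.73 TPM in Colq libraries. Its vector libraries gave 119.10 and 115.23, 111.94 and 153.23, and 132.53 TPM. Every vector library thus held more than any Colq library, with a log2 fold change of -1.27 (SE 0.07, adjusted p = 1.6e-05), -0.74 after size factors and -0.62 after the length adjustment. Cyp51, the lanosterol demethylase, was at 50.44, 51.24 and 51.28 TPM against 104.15 and 123.93, 103.40 and 116.15, and 115.56 TPM. Its log2 fold change was -1.13 (SE 0.05, adjusted p = 1.2e-05), and it kept values of -0.60 and -0.59 on the other scales. Nsdhl, which acts in the removal of the methyl groups of lanosterol, was at 35.5 ± 2.03 against 74.3 ± 11.0 TPM (SD, n = 3 tumors each). Fdft1, the squalene synthase (-0.92), Hsd17b7, a sterol ketone reductase (-0.90), Ebp, a sterol isomerase (-0.79), and Dhcr7, the last reductase of one branch (-0.86), fell on all 3 scales too. Lss, the lanosterol synthase, fell on deposited values (-1.10) and after size factors (-0.59), and stood at -0.20 after the length adjustment (adjusted p = 0.24). Sc5d, a sterol desaturase, followed the same pattern, at -0.91, -0.40 and -0.32 (adjusted p = 0.056 on the last scale). Both have long transcripts, of 6992 and 4787 bases.

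Msmo1 and Tm7sf2 stood apart from their neighbors in the pathway. Msmo1, the methylsterol monooxygenase, held 101.50, 114.07 and 109.54 TPM in Colq libraries against 119.76 and 137.44, 135.68 and 161.30, and 167.15 TPM. Its log2 fold change was -0.44 on deposited values (SE 0.10, adjusted p = 0.0058), 0.10 after size factors (adjusted p = 0.38) and -0.11 after the length adjustment (adjusted p = 0.42). Tm7sf2, a sterol reductase, held 18.43, 21.60 and 16.72 TPM against 20.13 and 21.49, 20.97 and 36.86, and 34.22 TPM. The portions of vector tumor 2 differed more (0.79 on the log2 scale) than the groups did (-0.50, adjusted p = 0.037). It no longer passed when Colq replicate 1 (adjusted p = 0.088), Colq replicate 3 (0.12), Vector replicate 2 (0.090) or Vector replicate 3 (0.082) was left out, and with all 8 libraries fitted with the tumor as a random block (0.090). After size factors Tm7sf2 stood at 0.0018 (adjusted p = 0.99). Mvk, Idi1, Msmo1 and Tm7sf2 were the 4 enzymes that passed on deposited values only.

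Fatty acid synthesis genes had the lowest median fold change of the roles on all 3 scales. All 6 fell on deposited values and after size factors and 5 after the length adjustment, where 59.6%, 27.4% and 25.9% of tested genes fell. Their medians were -1.49, -0.96 and -0.71, where the 18 sterol enzymes had -0.90, -0.39 and -0.37. Fasn, the fatty acid synthase, stood at 36.98, 38.72 and 36.37 TPM in Colq libraries and at 126.17 and 142.54, 134.69 and 139.48, and 156.16 TPM in vector libraries. The vector level was 3.82 times the Colq level, and the log2 fold change of -1.90 (SE 0.07, adjusted p = 9.7e-06) was undercut by only 0.211% of tested genes. Acaca, the acetyl-CoA carboxylase that supplies malonyl-CoA, was at 9.73, 9.07 and 8.0 TPM against 30.46 and 26.94, 27.72 and 42.23, and 38.39 TPM, a log2 fold change of -1.80 (SE 0.12, adjusted p = 2.5e-05). Acly, which cleaves citrate to cytosolic acetyl-CoA for both pathways, was at 54.26, 48.84 and 53.90 TPM against 149.12 and 150.11, 129.44 and 171.30, and 168.82 TPM, a log2 fold change of -1.55 (SE 0.07, adjusted p = 1.2e-05). None of the 3 overlapped between groups. After size factors they stood at -1.36 (Fasn), -1.30 (Acaca) and -1.02 (Acly), and after the length adjustment at -0.80, -0.76 and -0.87.

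The desaturase genes Scd1 and Scd2, neighbors on chromosome 19, introduce the double bond of oleate and palmitoleate. Scd2 had the highest mean TPM of all members in the vector tumors, at 449.31 and 451.41, 359.56 and 547.19, and 523.41 TPM, and held 178.56, 178.26 and 166.05 TPM in Colq libraries. Scd1 was at 30.29, 28.49 and 25.71 TPM against 62.25 and 62.60, 50.71 and 83.79, and 70.79 TPM. Both fell on all 3 scales, with log2 fold changes on deposited values of -1.43 (Scd2; SE 0.08, adjusted p = 1.4e-05) and -1.20 (Scd1; SE 0.08, adjusted p = 2.6e-05). The paralogs are close in sequence, so the split of reads between them is uncertain. Elovl6, the elongase that extends palmitate, was at 11.0 ± 0.62 against 24.3 ± 5.69 TPM (SD, n = 3 tumors each). It fell on deposited values (-1.05, adjusted p = 0.00061) and after size factors (-0.54, adjusted p = 0.016) but stood at -0.32 after the length adjustment (adjusted p = 0.13).

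**Figure D2:**
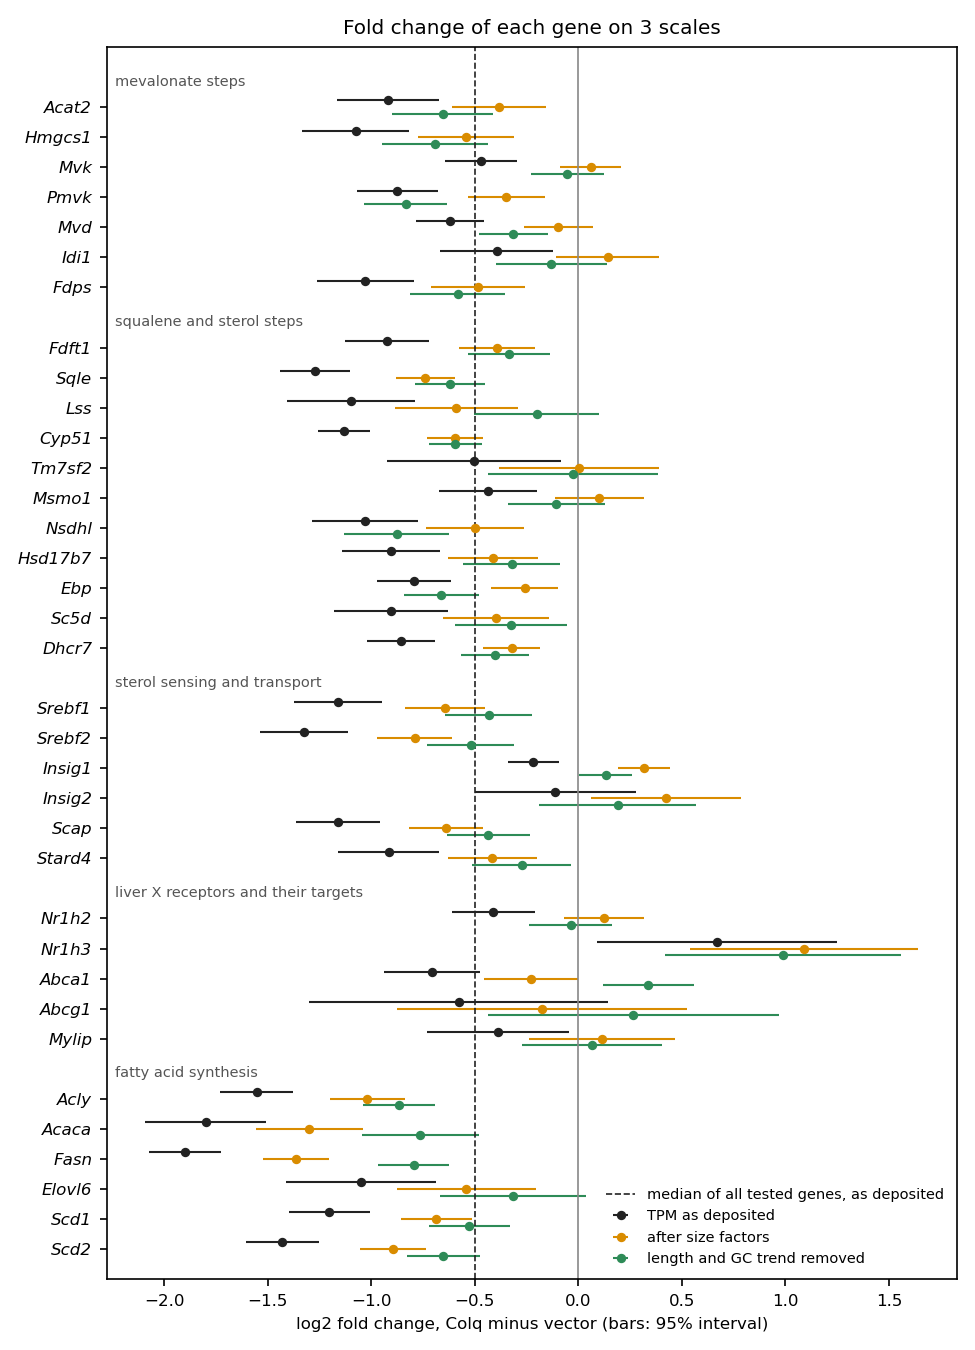
Log2 fold change, Colq minus vector, with 95% intervals for the 35 genes on 3 scales: deposited TPM, after size factors, and after the length adjustment. The dashed line is the median of all tested genes on deposited values (-0.50). On deposited values Fasn and Acaca lie furthest left, and Nr1h3 lies right of 0 on every scale.

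Genes of sterol sensing did not move as one. Srebf2, the main activator of sterol genes, gave 55.41, 55.31 and 47.12 TPM in Colq libraries and 119.96 and 126.19, 115.37 and 151.27, and 145.00 TPM in vector libraries. Srebf1, which favors fatty acid genes, gave 27.98, 31.95 and 25.14 TPM against 62.29 and 64.89, 51.61 and 82.39, and 64.45 TPM. Scap, the escort of both, gave 21.52, 23.44 and 19.20 TPM against 48.79 and 46.99, 40.10 and 56.58, and 51.39 TPM. The groups were apart for all 3 genes, with log2 fold changes of -1.33 (Srebf2; SE 0.09, adjusted p = 2.5e-05), -1.16 (Srebf1; SE 0.09, adjusted p = 3.7e-05) and -1.16 (Scap; SE 0.09, adjusted p = 3.1e-05). They also fell on the other scales, by 0.79, 0.64 and 0.64 on the log2 scale after size factors and by 0.52, 0.43 and 0.44 after the length adjustment. Stard4, a cytosolic sterol carrier, was at 14.5 ± 1.82 against 28.6 ± 1.13 TPM and fell on the first 2 scales (-0.92 and -0.42). Its value was -0.27 after the length adjustment (adjusted p = 0.064).

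The sterol sensors Insig1 and Insig2 were the members of this role that stood above the median of all genes. Insig1 held 82.73, 81.25 and 79.92 TPM in Colq libraries against 86.78 and 102.38, 87.87 and 107.90, and 92.57 TPM. It was lower on deposited values (-0.22, SE 0.05, adjusted p = 0.0071) and higher after size factors (0.32, adjusted p = 0.0023), so its direction depends on the scale. After the length adjustment it stood at 0.13 (adjusted p = 0.087). Insig2 held 103.80, 94.74 and 89.79 TPM against 80.46 and 85.89, 84.62 and 116.18, and 135.16 TPM. The vector libraries lay on both sides of the Colq libraries, and the log2 fold change of -0.11 did not pass (adjusted p = 0.56; 95% interval -0.50 to 0.28). After size factors Insig2 stood at 0.42 (adjusted p = 0.052).

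The 5 liver X receptor and efflux genes differed among themselves. On deposited values 3 fell and 1 rose, where 59.6% of tested genes were lower and 11.3% higher, with a median of -0.41 against -0.50 for all tested genes. After size factors 0 fell and 1 rose (background 27.4% and 26.5%), with a median of 0.11 against -0.03. After the length adjustment 0 fell and 2 rose (background 25.9% and 18.0%), with a median of 0.26 against -0.08. The counts were not tested against those of all genes. Nr1h3, the receptor prominent in macrophages, held 4.37, 5.97 and 4.83 TPM in Colq libraries against 2.70 and 2.35, 4.65 and 4.29, and 1.83 TPM. Its groups overlapped, since 1 portion of vector tumor 2 lay within the Colq range and the other just under it. The log2 fold change was 0.67 on deposited values (SE 0.25, adjusted p = 0.042), 1.09 after size factors (adjusted p = 0.0068) and 0.99 after the length adjustment (adjusted p = 0.014). Over all alternatives its adjusted p ran from 0.0046 to 0.25. On deposited values it failed to pass when Colq replicate 1 (adjusted p = 0.060), Colq replicate 2 (0.13), Colq replicate 3 (0.088), Vector replicate 1 (0.11) or Vector replicate 3 (0.099) was left out, and with the tumor as a random block (0.053). In the same tumors 2 of 10 macrophage markers rose and 1 fell on deposited values, and 8 rose and 1 fell after size factors; their part in the Nr1h3 value was not tested. Nr1h2, the widely expressed receptor, was at 65.0 ± 7.04 against 86.7 ± 3.33 TPM (SD, n = 3 tumors each), with -0.41 on deposited values and 0.12 after size factors (adjusted p = 0.24).

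Among the targets of the receptors, Abca1, the exporter to lipid-poor apolipoprotein, held 5.67, 5.14 and 5.38 TPM in Colq libraries and 9.11 and 9.50, 10.53 and 9.97, and 8.82 TPM in vector libraries. It fell on deposited values (-0.71, SE 0.10, adjusted p = 0.00047), stood at -0.23 after size factors (adjusted p = 0.080), and was higher after the length adjustment (0.34, adjusted p = 0.023). At 10262 bases its transcript is the longest of the 35. Abcg1, the exporter to lipoprotein particles, held 2.10, 2.94 and 1.92 TPM against 4.14 and 3.92, 6.15 and 6.87, and 2.15 TPM. Vector tumor 3 lay within the Colq range. The log2 fold change of -0.58 did not pass (adjusted p = 0.13), but it passed without Vector replicate 3 (-0.90, adjusted p = 0.0095) and with the tumor as a random block (-0.71, adjusted p = 0.044). Mylip, a ubiquitin ligase that degrades lipoprotein receptors, was at 10.5 ± 0.17 against 14.2 ± 2.95 TPM. Its fall of 0.39 on the log2 scale (adjusted p = 0.045) was lost without each tumor except Vector replicate 3 (adjusted p from 0.091 to 0.14), and after size factors it stood at 0.11 (adjusted p = 0.55).

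The synthesis enzymes were then set against the liver X receptor and efflux genes within each library, a difference that moves little with the scaling of a library. Their mean log2(TPM + 1) exceeded that of the 5 genes, which include Mylip, neither receptor nor exporter, by 1.94, 1.78 and 1.88 in Colq libraries. In vector libraries the excess was 2.42 and 2.50 (tumor 1), 2.10 and 2.47 (tumor 2) and 3.03 (tumor 3). The Colq libraries lay below all vector libraries. The tumor means were 1.87 ± 0.08 and 2.59 ± 0.39 (SD, n = 3 each), a difference of -0.72, or -0.51 without Vector replicate 3, the vector tumor with the lowest Nr1h3 and Abcg1. From the fold changes after size factors the difference was -0.67, and after the length adjustment -0.81. The fatty acid enzymes against the sterol enzymes gave -0.14, -0.21 and -0.22 in Colq libraries and between 0.34 and 0.52 in vector libraries. This second difference averaged -0.19 in Colq and 0.45 in vector tumors, so that the fatty acid enzymes lay above the sterol enzymes in vector tumors and below them in Colq tumors. The difference between groups was -0.64 on deposited values and -0.65 after size factors, but -0.22 after the length adjustment. In the first difference Nr1h3 was the only 1 of the 5 genes with a positive fold change on deposited values (0.67). Abca1 (-0.71), Abcg1 (-0.58), Nr1h2 (-0.41) and Mylip (-0.39) were negative. Counting Nr1h3 thus made the first difference larger in size, by an amount that was not computed. Both differences are descriptions over chosen genes and carry no test.

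**Figure D3:**
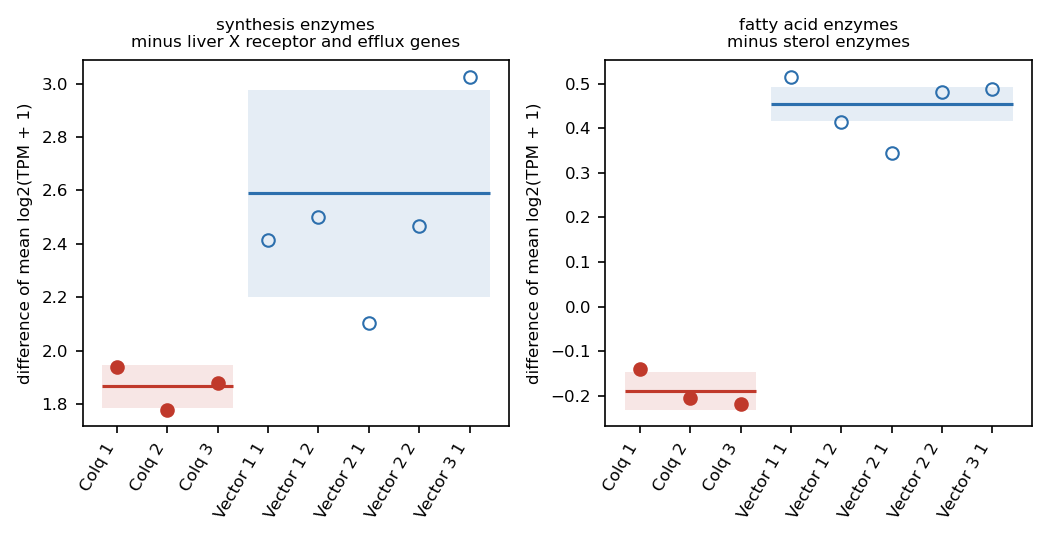
Difference of mean log2(TPM + 1) between groups of genes in each library, with lines at the mean and bands of 1 SD over 3 tumors (Colq filled, vector open). The synthesis enzymes exceed the receptor and efflux genes by 1.78 to 1.94 in Colq libraries and by 2.10 to 3.03 in vector libraries. The fatty acid enzymes lie below the sterol enzymes in Colq libraries and above them in vector libraries.

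Fatty acid enzymes have longer transcripts (median 5703 bases) than the mevalonate (2380) and the squalene and sterol (3698) enzymes, in data where long transcripts were lower. Over the 35 members Spearman's rho between log2 fold change and length was -0.59, and over the 13211 tested genes with a length it was -0.55. Genes are not independent replicates, and these values are descriptions. Pmvk, with 1194 bases the shortest of the 35, stood at -0.88 where genes from 1000 to 2000 bases had a median of -0.16. Abca1 and Fasn, at 10262 and 10050 bases, stood at -0.71 and -1.90 where genes of 8000 bases or more had a median of -1.02. In all, 19 members fell on every one of the 3 scales: Acat2, Hmgcs1, Pmvk, Fdps, Fdft1, Sqle, Cyp51, Nsdhl, Hsd17b7, Ebp, Dhcr7, Acly, Acaca, Fasn, Scd1, Scd2, Srebf1, Srebf2 and Scap. Of all tested genes 59.6%, 27.4% and 25.9% were lower on the single scales. The share lower on all 3 was not counted.

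**Figure D4:**
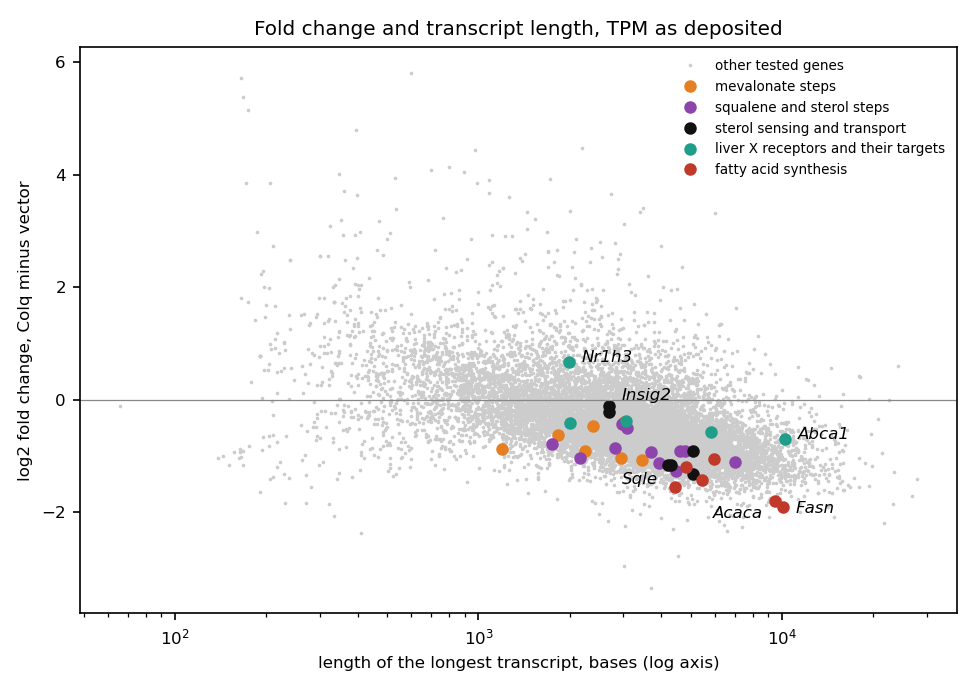
Log2 fold change on deposited TPM (vertical axis) against the length of the longest transcript in bases (log axis) for tested genes with a length, with the 35 members colored by role. Fold changes decline with length, and Fasn and Acaca lie below the median of their length class while Abca1 and Nr1h3 lie above that of theirs.

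The portions show how far a single vector tumor varied. In vector tumor 2, 32 of the 35 genes were higher in the second portion, with a median difference of 0.34 on the log2 scale against 0.11 over all tested genes. In vector tumor 1, 26 were higher in the second portion, with a median difference of 0.06 against 0.01 over all tested genes. On deposited values, for 32 members the difference between groups exceeded both portion differences in size, the others being Tm7sf2, Insig1 and Insig2. All tested genes had a median of -0.50 on that scale, and their share was not counted. Portion differences were taken on deposited values only, and those of vector tumor 2 include the median shift of 0.11. Fold changes after size factors are therefore not on the same scale as these differences. With that limit, Sc5d (-0.40 against 0.71) and Stard4 (-0.42 against 0.78) were smaller in size than the portion difference of vector tumor 2. For Srebf1 the values were close (-0.64 against 0.66), too close to rank across the scales. Others, such as Acly (-1.02 against 0.40), exceeded that portion difference. The first portion of tumor 2 was the lowest vector library for Srebf1, Srebf2, Scap, Scd1 and Scd2, among others, and still lay above every Colq library for these genes.

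The authors' deposited table, made with DESeq2, calls 20.4% of its genes with an adjusted p lower and 20.1% higher at an adjusted p under 0.05. Of the 35 members the authors' deposited table has 24 lower, 3 higher and 8 not called. Its values lay close to those after size factors, with the same direction called in 25 members. In the authors' deposited table Fasn stood at -1.38, Acaca at -1.38, Acly at -1.03, Srebf2 at -0.80 and Sqle at -0.75. The 3 higher genes in the authors' deposited table were Nr1h3 (1.33, adjusted p = 0.00031), Insig1 (0.33, adjusted p = 6.7e-05) and Insig2 (0.42, adjusted p = 0.014). Abca1 is lower in the authors' deposited table (-0.26, adjusted p = 0.037).

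Related pathways were examined through 6 further lists, whose counts stand against the shares of all tested genes: 59.6% lower and 11.3% higher on deposited values, 27.4% and 26.5% after size factors, and 25.9% and 18.0% after the length adjustment. All 18 tested genes of other fatty acid synthesis and desaturation were lower on deposited values, 9 lower and 0 higher after size factors, and 10 lower and 1 higher after the length adjustment. The desaturases Fads2 (40.8 ± 2.24 against 109.9 ± 5.30 TPM; -1.40) and Fads1 (-1.25), the elongase Elovl5 (-0.97) and Mid1ip1, an activator of the carboxylases (-0.84), fell on all 3 scales. In glycerolipid synthesis 15 of 15 were lower on deposited values, 5 lower after size factors, and 7 lower and 1 higher after the length adjustment. Lpin1, a phosphatidate phosphatase (-1.44), Gpam, the first acyltransferase (-1.17), and Acsl4, an acyl-CoA synthetase (-0.92), fell on all 3 scales, while Agpat3 was lower on deposited values (-0.66) and higher after the length adjustment (0.20, adjusted p = 0.027). Among 12 genes of processing and turnover of the Srebf proteins 12 were lower on deposited values, 8 after size factors and 5 after the length adjustment. They include the vesicle coat genes Sec24a (-1.20), Sec24b (-1.05) and Sec24c (-0.91) and the Insig-associated Erlin2 (-1.11).

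For the remaining 3 lists the counts lay nearer to those shares on deposited values. Genes of sterol uptake, storage and lysosomal release were lower in 8 of 11 and higher in 0 on deposited values, and 4 lower and 2 higher after size factors. After the length adjustment 5 were lower and 3 higher. Scarb1, the receptor for high-density lipoprotein (38.2 ± 1.68 against 102.6 ± 18.9 TPM; -1.39), Lipa, the lysosomal acid lipase (-1.03), Npc1, the lysosomal sterol exporter (-1.07), and Osbp, an oxysterol binding protein (-1.08), fell on all 3 scales. In the isoprenoid branch 6 of 11 were lower and 0 higher on deposited values, but 3 lower and 5 higher after size factors and 2 lower after the length adjustment. Fntb, a farnesyltransferase subunit, fell on all 3 scales (-1.35, -0.84 and -0.91). Fatty acid oxidation genes, the opposite route, were lower in 7 of 14 and higher in 1 on deposited values, with a median of -0.23. After size factors 3 were lower and 7 higher, and after the length adjustment 4 and 3. Etfb, an electron transfer flavoprotein subunit, was higher on all 3 scales (0.56, 1.09 and 0.46), and Etfdh (-0.86) and the trifunctional enzyme gene Hadha (-0.85) were lower on all 3. Cpt1a, which admits fatty acids to mitochondria, was lower on deposited values (-0.78) and after size factors (-0.26, adjusted p = 0.023). It stood at -0.11 after the length adjustment (adjusted p = 0.28).

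Markers of the cell types in such tumors moved in the same libraries, and their part in the results above was not tested. Of all tested genes 59.6% were lower and 11.3% higher on deposited values. These shares were 27.4% and 26.5% after size factors, and 25.9% and 18.0% after the length adjustment. Of 7 melanocyte markers 6 fell on deposited values (median -1.06) and 4 fell and 2 rose after size factors, with a summed level of 10949 to 11272 TPM in Colq and 17603.5 to 22338.5 TPM in vector libraries. After the length adjustment 4 fell and 1 rose. Sox10 (-1.33), Pmel (-1.06), Tyrp1 (-1.30) and Mitf (-1.46) were the 4 that fell on all 3 scales. Mlana stood at 0.25 on deposited values (adjusted p = 0.084) and rose after size factors (0.80, adjusted p = 0.0014). Tyr was lower on deposited values (-0.19) but higher after size factors (0.35) and after the length adjustment (0.27, adjusted p = 0.014). Dct fell on deposited values only (-0.68). Macrophage markers summed to 2652 to 2775 TPM in Colq and 2524 to 3479 TPM in vector libraries. That sum is dominated by Gpnmb, also a melanocyte gene, which fell (1117 ± 42.5 against 2284 ± 199 TPM), while Lyz2 rose (869.3 ± 4.37 against 187.5 ± 32.5 TPM). Skeletal muscle markers rose in 9 of 9 on all 3 scales and summed to 784.2 to 805.2 against 31.7 to 155.8 TPM. Endothelial markers fell in 4 of 4 on all 3 scales, Kdr (-1.64), Cdh5 (-2.11), Pecam1 (-1.16) and Emcn (-1.14). They summed to 15.0 to 16.7 against 38.5 to 58.6 TPM. Among 5 fibroblast markers Lum and Dcn rose and Col1a1 and Col1a2 fell on deposited values, and Pdgfra stood at 0.18 (adjusted p = 0.40). After size factors 3 rose and 1, Col1a1, fell. After the length adjustment 4 rose and 0 fell, with Col1a2 at 0.33 (adjusted p = 0.016) and Pdgfra at 1.06 (adjusted p = 0.0028). Keratinocyte markers rose in 4 of 6 on deposited values, 3 after size factors and 4 after the length adjustment. Their sum ran from 38.5 to 43.9 TPM in Colq and from 0 to 218.8 TPM in vector libraries. For the lipid-rich cell types, 5 of 10 adipocyte markers passed the filter and 1 of them, Adipoq, rose (2.67 ± 0.29 against 1.16 ± 0.60 TPM). The others, Lipe (-0.27), Cfd (0.45), Fabp4 (0.32) and Pparg (-0.01), did not pass on deposited values. After size factors 3 of the 5 rose, Adipoq (adjusted p = 0.0044), Cfd (0.044) and Fabp4 (0.036), and 0 fell. After the length adjustment Fabp4 rose (adjusted p = 0.031), while Adipoq did not pass (0.052). The adipocyte sum was 80.9 to 89.2 TPM in Colq and 56.5 to 108.5 TPM in vector libraries, with Lep and Plin1 under 1 TPM in every library. Of 8 sebaceous gland markers 2 were tested, Soat1, which fell on deposited values (-0.57), and Far2 (-0.02), and Mc5r, Elovl3, Awat1 and Plin5 were under 1 TPM in every library. No marker was at 0 in all 8 libraries.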

How the data were processed

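RNA from whole tumors was measured by sequencing of poly-A libraries prepared with a kit that keeps no strand (per the labels' protocols), and overlapping antisense genes were not told apart. The authors deposited log2(TPM + 1) per gene, as the values show; the submitters' processing notes name RSEM and mm39. No source used here gives the aligner, the versions or the annotation. The authors' deposited DESeq2 comparison (tool per the submitters' processing notes) has columns, per the file headers, of normalized mean signal, log2 fold change, its error, p-values and a test score; its log2 fold changes and adjusted p are quoted. Its libraries are not stated in these sources, and Colq itself set its sign. Repertoire measures were not used.

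Portions were averaged on the log2 scale, or as TPM before size factors were taken. limma 3.58.1 (R 4.3.3; lmFit, then eBayes with a trend) was fitted to the 13726 genes averaging 1 TPM or more, with Benjamini-Hochberg adjustment over them, a threshold of 0.05 and no p-value over the list; the fit was tested on simulated data. Longest-transcript length and GC content (GENCODE M21 on GRCm38, another build than the authors') covered 96.2% of these genes, and their trend was removed by loess with a span of 0.5. The labels name separate tumors, and p-values measure the spread between libraries taken as separate tumors. The Colq libraries differed less from one another (SD 0.36 to 0.39) than portions of 1 vector tumor (0.51). The spread between Colq tumors may therefore be understated, which was not tested. Members, lists, motifs and tests were chosen with earlier results of these data known. Named genes are all members and, from each further list, up to 4 with the smallest p or all where 5 or fewer were tested. Alternatives covered the pseudocount, filter, scaling, portions, the tumor as a random block over all 8 libraries, the replicate number as a block, and leaving out each tumor.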

Additional observations from a re-analysis of the deposited data

How the results depend on the processing

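The count of lower members (32) lay between 23 and 33 under the alternatives other than removal of the length and GC trend, which left 20, and leave-one-out fits gave 29 to 32. The 24 enzymes stayed between 17 and 24 lower and 0 higher. The count of higher members (1, Nr1h3) became 0 with no filter, with first portions and with the tumor as a random block. It was also 0 with a mean TPM of at least 5. That filter removed Nr1h3 before the test (means of 5.06 TPM in Colq and 2.94 TPM in vector tumors), so this 0 is not a failed call. The count was 2 with size factors, quantile normalization or the length trend removed, and leave-one-out fits gave 0 to 1. Of the liver X receptor and efflux genes 3 were lower, 0 with size factors, quantile normalization or the length trend removed, and 2 to 4 in leave-one-out fits. Their count of higher genes (1, again Nr1h3) was 0 under the same alternatives as for all members, with the same limit for the higher filter. It was 2 with the length trend removed, and 0 to 1 in leave-one-out fits. The synthesis against efflux difference ran from -0.88 to -0.51 in leave-one-out values. It was -0.67 with size factors and -0.81 when the length trend was taken out, and the fatty acid against sterol difference (-0.64) was -0.65 and -0.22, all 4 values added after seeing the data. With the tumor as a random block Tm7sf2 and Nr1h3 no longer passed and Abcg1 did. Some log2 fold changes turned positive: with size factors Mvk (0.059), Idi1 (0.14), Tm7sf2 (0.0018), Msmo1 (0.10), Insig1 (0.32), Insig2 (0.42), Nr1h2 (0.12) and Mylip (0.11). With quantile normalization these were Mvk (0.055), Idi1 (0.030), Tm7sf2 (0.065), Insig1 (0.15), Insig2 (0.22) and Mylip (0.18). With the length trend removed these were Insig1 (0.13), Insig2 (0.19), Abca1 (0.34), Abcg1 (0.26) and Mylip (0.063). Leave-one-out values of Insig2 ran from -0.27 (without Vector replicate 1) to 0.079 (without Vector replicate 3). The cause was not tested. With the replicate block, although same-numbered tumors did not deviate together (correlations 0.030, 0.0070 and 0.044), 33 members were lower and 1 higher, 24 enzymes were lower and 0 higher, 4 liver X receptor and efflux genes were lower and 1 higher, and Abcg1 passed (-0.58, adjusted p = 0.047). TPM keeps no depth, so counting error is unknown, and low genes such as Nr1h3 and Abcg1 rest on few TPM.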
